A study of Homo sapiens with 14 samples.

Results

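Day 45 was compared with day 21 of cartilage pellet culture, over all expressed genes, in 9 of the 14 libraries of a time course with samples at 21, 30 and 45 days. Pellets were grown in chondrogenic medium from WA01, also called H1, an established line of human embryonic stem cells. The labels name no genetic change and no agent besides the medium, and the groups differ in the days of culture. All pellets derive from this line, and RNA came from whole pellets with every cell type they held. Libraries were assigned by the day in their titles, which gave 4 libraries at day 21 and 5 at day 45, with 27627887 to 33660704 expected counts each. Day 45 replicate 1 carries 45 days in its title and 30 days in its treatment label, and it was grouped by title. It stood farther from the other day 45 libraries than they stood from each other, since pairs with it differed over genes by a chi-square of 34.31 to 61.82 per degree of freedom and the other pairs by 15.09 to 30.13. Counts of called genes are therefore also given without it. Whether replicates came from separate cultures is not in the labels, and each p-value covers only the spread between these libraries, which may be technical.

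Cartilage forms when mesenchymal cells condense, switch on SOX9 and surround themselves with collagen II and aggrecan. Making that matrix loads the secretory pathway, because procollagens and large proteoglycans are folded, modified and packed for export in the endoplasmic reticulum and the Golgi. In the growth plate, chondrocytes stop dividing, enlarge and turn on collagen X, a state called hypertrophy. Cells that leave the cycle lower the genes of DNA replication, and the circadian clock runs in cartilage as in most tissues.

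Between day 21 and day 45, 10284 of 17838 genes tested changed (57.7%). Of these, 4836 were higher at day 45 (27.1% of the genes tested) and 5448 were lower (30.5%). The calls are those of edgeR's quasi-likelihood test with a Benjamini-Hochberg adjusted p below 0.05. Levels are read counts scaled for depth with TMM factors (CPM), and each log2 fold change stands beside its standard error (SE). In bulk samples such as these, fewer cells of a type and less RNA per cell cannot be told apart. Most called changes were modest: 5763 of them (56%) were at most 2-fold. More than 2-fold were 1827 genes upwards (10.2%) and 2694 downwards (15.1%), and more than 16-fold were 137 and 176. Without day 45 replicate 1, 9740 genes were called, and 9570 of these were main calls in the same direction. The libraries of the days did not overlap for 9184 genes (51.5% of those tested).

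TPM, levels per length of gene as shares of all transcripts, gave another balance of rises and falls. With limma on log2(TPM + 1), 2140 genes were higher and 8720 lower, against 4836 and 5448 in the main test. The median change of all genes was -0.34 on that scale and -0.05 with TMM, and list medians on the TPM scale are given relative to that shift. Changes of genes near 0 at either day are smaller on that scale because of the added 1. Genes called higher had a median log2 fold change of 0.78, and those called lower of -0.99.

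**Figure D1:**
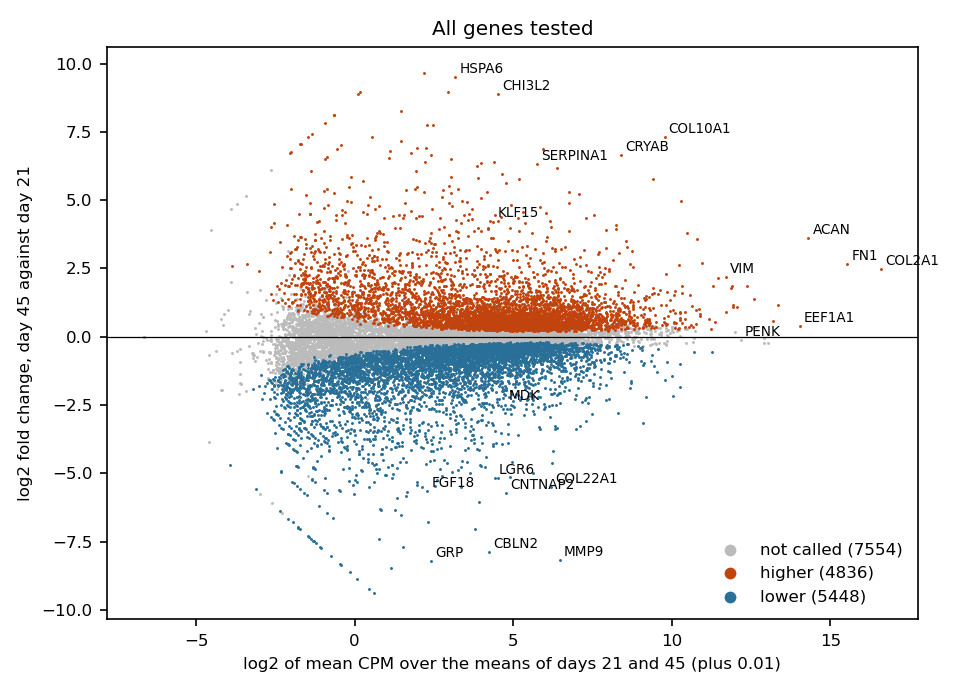
Log2 fold change of day 45 against day 21 (vertical) against the log2 of the mean CPM of the days plus 0.01 (horizontal), 1 point per gene tested, with some of the genes named in the text. The 4836 orange genes were called higher, the 5448 blue genes lower, and grey genes were not called, and the most abundant genes lie above 0 more often than the least abundant; on log2(TPM + 1) the split was 2140 and 8720.

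The libraries became more concentrated in a few genes. The 10 most abundant genes held 13.97, 13.3, 13.3 and 14.04% of the counts in the day 21 libraries and 35.2, 27.6, 30.1, 27.9 and 30.02% in the day 45 libraries. Every day 45 library lay above every day 21 library (two-sided exact permutation test, p = 0.00794, the smallest that 4 against 5 libraries allow, 0.00992 adjusted over 5 measures). The number of genes that together made up 50% of the counts was 547, 601, 672 and 565 at day 21 and 77, 184, 157, 192 and 147 at day 45, with day 45 replicate 1 the lowest (exact permutation test, p = 0.00794). Genes at 1 CPM or more, here without TMM scaling, went from 14844 ± 243 (SD, n = 4) to 13581 ± 175 (SD, n = 5), again without overlap (exact permutation test, p = 0.00794). Without that scaling 1 CPM is a share of each library, so a larger share in a few genes lowers this number too. It is therefore not a result apart from the concentration. From TPM, which corrects for gene length, the share of the 10 most abundant genes went from 9.35% ± 0.184 (SD, n = 4) to 15.7% ± 1.36 (SD, n = 5), a smaller difference in the same direction (exact permutation test, p = 0.00794). The share of counts in genes that do not code for protein was 3.08% ± 0.332 (SD, n = 4) and 2.63% ± 0.333 (SD, n = 5) and did not pass (exact permutation test, p = 0.0952).

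**Figure D2:**
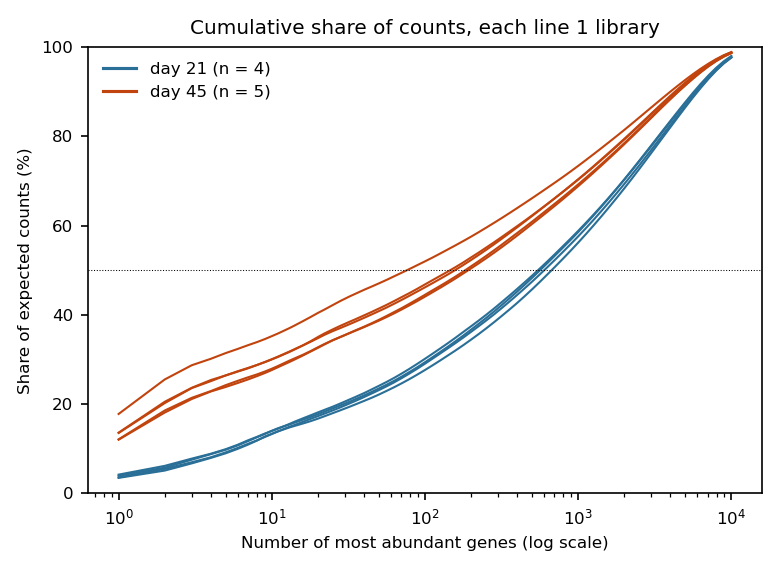
Cumulative share of expected counts in percent (vertical) held by the most abundant genes, whose number is on a log scale (horizontal), 1 line per library. At 10 genes the 4 day 21 lines lie between 13.3% and 14.04% and the 5 day 45 lines between 27.63% and 35.22%, and the dotted line marks 50%.

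The direction of change followed the level of the gene. Among the 83 genes at 1000 CPM or more, averaged over the days, 66.3% were called higher and 7.23% lower. Among the 3465 genes under 1 CPM, 13.2% were called higher and 29.5% lower. Abundant genes are measured more precisely, with a median SE of 0.15 and 0.44 in these classes. Protein-coding genes were split evenly, with 4380 of 14380 higher and 4367 lower. Of 2433 long non-coding RNAs, 317 were higher (13%) and 801 lower (32.9%), with a median log2 fold change of -0.38. These shares are near those of all genes under 1 CPM, and the part of level in them was not tested. Antisense ones among these RNAs cannot be told apart from their overlapping genes because the library kit does not mark strand.

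Defining markers of cartilage were abundant at both days. Counts of markers called, here and for the cell types below, stand beside 27.1% higher and 30.5% lower over all genes tested. Of 16 chondrocyte markers 9 rose, 4 fell and 3 did not pass, and their summed level was 49205 to 62873 CPM at day 21 and 209089 to 327742 CPM at day 45. The largest part of the sum was COL2A1, with means of 29899 CPM at day 21 and 167060 CPM at day 45. Of the rises, that of COL11A1 (0.58 ± 0.22, SE) kept its call in 5 of the 9 fits that left out a library. On log2(TPM + 1) COL11A1 was at 0.08. The 4 that fell were COL9A2 (-0.56 ± 0.15, SE), a chain of collagen IX, EPYC (-1.07 ± 0.16, SE), a small proteoglycan of immature cartilage, CNMD (-0.91 ± 0.16, SE), which encodes chondromodulin, and CYTL1 (-0.77 ± 0.19, SE), a small secreted protein. All 7 hypertrophy markers tested rose, with a summed level of 83.5 to 98.1 CPM at day 21 and 1677 to 4223 CPM at day 45. The collagenase MMP13 went from 42.8 ± 15.5 to 65.5 ± 15.5 CPM (SD, n = 4 and 5) with overlap of the days (edgeR adjusted p = 0.0346), and its call ended without day 21 replicate 1, day 21 replicate 2, day 45 replicate 1 or day 45 replicate 2, with only days 21 and 45 in the fit, with no low-count filter and on log2(TPM + 1).

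Of the osteoblast markers, BGLAP, IBSP, SOST, IFITM5 and MEPE stayed under 1 CPM in all 9 libraries, and the summed level of the list was 80.2 to 191 CPM at day 21 and 38.1 to 51.6 CPM at day 45. Of its 5 members tested 2 fell, among them DMP1, which went from 139 ± 50.1 to 24.3 ± 7.44 CPM (SD, n = 4 and 5). The 1 that rose was SP7, a factor of osteoblasts and hypertrophic chondrocytes, which went from 0.781 ± 0.31 to 9.62 ± 3.79 CPM (SD, n = 4 and 5). Tendon markers summed to 608 to 823 CPM at day 21 and 152 to 216 CPM at day 45, and 4 of 6 fell and 1 rose. Fibroblast and perichondrium markers summed to 31286 to 33511 CPM at day 21 and 29976 to 40051 CPM at day 45, so the sums overlapped. Of the 13 members 3 rose and 5 fell, near the 27.1% and 30.5% of all genes. Among these COL6A3, a chain of collagen VI, rose from 559 ± 65.5 to 1421 ± 270 CPM (SD, n = 4 and 5), and THY1, a surface marker of fibroblasts, fell from 127 ± 10.5 to 30.7 ± 5.32 CPM (SD, n = 4 and 5). Pluripotency markers summed to 16.04 to 19.9 CPM at day 21 and 1.15 to 2.44 CPM at day 45, with all 3 members tested lower and POU5F1, NANOG and SOX2 under 1 CPM in every library. Neuron markers summed to 196 to 208 CPM at day 21 and 117 to 136 CPM at day 45, with 1 of 7 tested higher and 5 lower. Glia markers summed to 191 to 250.1 CPM at day 21 and 76.99 to 109 CPM at day 45, and of 7 tested 5 fell, with S100B and ERBB3 the most abundant at day 21, and 2 rose. MBP, a myelin protein, rose from 5.72 ± 0.684 to 40.5 ± 5.78 CPM (SD, n = 4 and 5) and GFAP, a glial filament, from 0.466 ± 0.153 to 1.39 ± 0.594 CPM (SD, n = 4 and 5). Endothelium markers summed to 266 to 318 CPM at day 21 and 153 to 198 CPM at day 45, mostly from ERG, with PECAM1, CDH5 and VWF under 1 CPM. Of the 4 members tested 2 fell, ERG among them, and 2 rose. The receptor TIE1 rose from 1.65 ± 0.302 to 10.98 ± 3.895 CPM (SD, n = 4 and 5) and its relative TEK from 0.202 ± 0.136 to 0.908 ± 0.3299 CPM (SD, n = 4 and 5). Of the blood list CD68, a lysosomal protein of macrophages that other cells also make, rose from 1.07 ± 0.335 to 53.3 ± 7.86 CPM (SD, n = 4 and 5), with PTPRC, CD14 and SPI1 under 1 CPM. The part of these other cell types in the results was not tested.

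The 12 genes with the largest rises included 2 stress proteins, HSPA6 and CRYAB, and the hypertrophy marker COL10A1. They were chosen by size among genes whose days do not overlap, so their separation is part of the choice, and 80.2-fold was the smallest of these fitted rises. HSPA6 (ENSG00000173110; chromosome 1, 161524540 to 161526910, plus strand, GRCh38), a strictly stress-inducible chaperone of the HSP70 family, was at 0.0556, 0, 0 and 0.0283 CPM in the day 21 libraries and 17.2, 23.2, 9.07, 14.6 and 25.4 CPM in the day 45 libraries. It was nearly silent at day 21, with 3 counts in all, which gave a ratio of 885 between summed counts per scaled library (95% interval 303 to 4300). That interval covers counting error only, as do those below. Its log2 fold change was 9.51 ± 0.52 (SE; edgeR adjusted p = 1.40e-10) and 10.38 without day 21 replicate 1, which held 2 of those counts. HSPA6 is nearly identical in places to other HSP70 genes, so the assignment of its reads is uncertain. CRYAB, a small heat shock protein, was at 6.39, 9.88, 5.66 and 4.93 CPM in the day 21 libraries and 662, 576, 784, 656 and 667 CPM in the day 45 libraries (log2 fold change 6.64 ± 0.27 (SE), edgeR adjusted p = 7.93e-12). CRYAB was the second most abundant of the 12 genes at day 45.

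COL10A1 (ENSG00000123500; chromosome 6, 116118923 to 116158747, minus strand), whose product collagen X marks hypertrophy, was at 8.42, 14.4, 10.2 and 11.1 CPM in the day 21 libraries and 3159, 1079, 1249, 1122 and 2060.3 CPM in the day 45 libraries (log2 fold change 7.30 ± 0.38 (SE), edgeR adjusted p = 1.48e-10). Replicate 1 was the highest at day 45. CHI3L2, a chitinase-like protein that chondrocytes secrete, was at 0.111, 0.07598, 0.129 and 0.0567 CPM in the day 21 libraries and 76.7, 29.9, 49.6, 39.8 and 34.2 CPM in the day 45 libraries, with a ratio of 492 between summed counts per scaled library (95% interval 293 to 901). SERPINA1, which encodes the protease inhibitor alpha-1 antitrypsin, was at 1.36, 1.52, 1.11 and 1.25 CPM in the day 21 libraries and 149, 74.05, 91.4, 105 and 108 CPM in the day 45 libraries (log2 fold change 6.33 ± 0.24 (SE), edgeR adjusted p = 3.88e-12). SERPINA1 is also a liver gene and 1 of the 8 hepatocyte markers listed. Of the others ALB, APOA1, APOA2, AFP, HNF4A and FGB stayed under 1 CPM in all 9 libraries and TTR did not, and all 7 had too few counts to be tested. The summed level of the list was 1.42 to 4.66 CPM at day 21 and 74.5 to 149 CPM at day 45, and its part in the result was not tested. PLA2G2A, a secreted phospholipase, rose with a ratio of 233 between summed counts per scaled library (95% interval 113 to 581), and its log2 fold change of 7.73 became 8.46 without day 21 replicate 1. The proteases MMP3 and MMP7 rose from 0.101 ± 0.103 to 10.4 ± 2.44 CPM (SD, n = 4 and 5) and from 0.375 ± 0.229 to 31.1 ± 8.92 CPM (SD, n = 4 and 5). SLC27A2, which activates fatty acids, was nearly silent at day 21 and rose with a ratio of 576 between summed counts per scaled library (95% interval 225 to 2120). The remaining genes of this group were ABI3BP, a matrix protein (6.87 ± 0.40, SE), TFCP2L1, a transcription factor (6.496 ± 0.34, SE), and ZNF385B, a zinc finger gene (6.404 ± 0.31, SE).

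Promoters of HSPA6 and MMP7 are shown because both genes were near 0 at day 21 and because each holds letters that a stress or AP-1 factor is known to bind. They are the 250 bases before the gene's start in RefSeq (GRCh38.p14), 5′ to 3′ on the gene's strand, for HSPA6 at chr1:161524290-161524539, plus strand, and for MMP7 at chr11:102530748-102530997, minus strand. Capitals mark GAANNTTC, a pair of heat shock units, in HSPA6, and TGANTCA, the AP-1 motif, in MMP7, both searched on both strands. TGANTCA in the HSPA6 window is left in lower case.
HSPA6: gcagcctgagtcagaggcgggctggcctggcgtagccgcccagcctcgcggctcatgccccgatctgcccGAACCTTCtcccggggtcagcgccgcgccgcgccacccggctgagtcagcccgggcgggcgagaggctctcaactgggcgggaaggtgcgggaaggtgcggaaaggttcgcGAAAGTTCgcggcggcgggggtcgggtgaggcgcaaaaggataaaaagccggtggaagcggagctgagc
MMP7: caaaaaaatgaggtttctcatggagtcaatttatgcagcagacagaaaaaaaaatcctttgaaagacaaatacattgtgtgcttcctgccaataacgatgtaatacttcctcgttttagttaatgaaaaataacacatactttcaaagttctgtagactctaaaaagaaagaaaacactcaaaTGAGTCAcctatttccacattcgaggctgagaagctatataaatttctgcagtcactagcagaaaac
GAANNTTC was found 2 times in the HSPA6 window, starting 180 and 69 bases before the start, and TGANTCA once in that of MMP7, 67 bases before. Of 12417 promoters of genes tested, 4.18% held GAANNTTC, against 4.71% for genes more than 2-fold higher and 5.01% for those more than 2-fold lower. For TGANTCA the shares were 3.98%, 5.89% and 4.7%. The letters describe these windows and do not show binding. GAANNTTC and all genes whose promoters are printed were chosen after values and letters were seen, and no motif searched contains another.

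**Figure D3:**
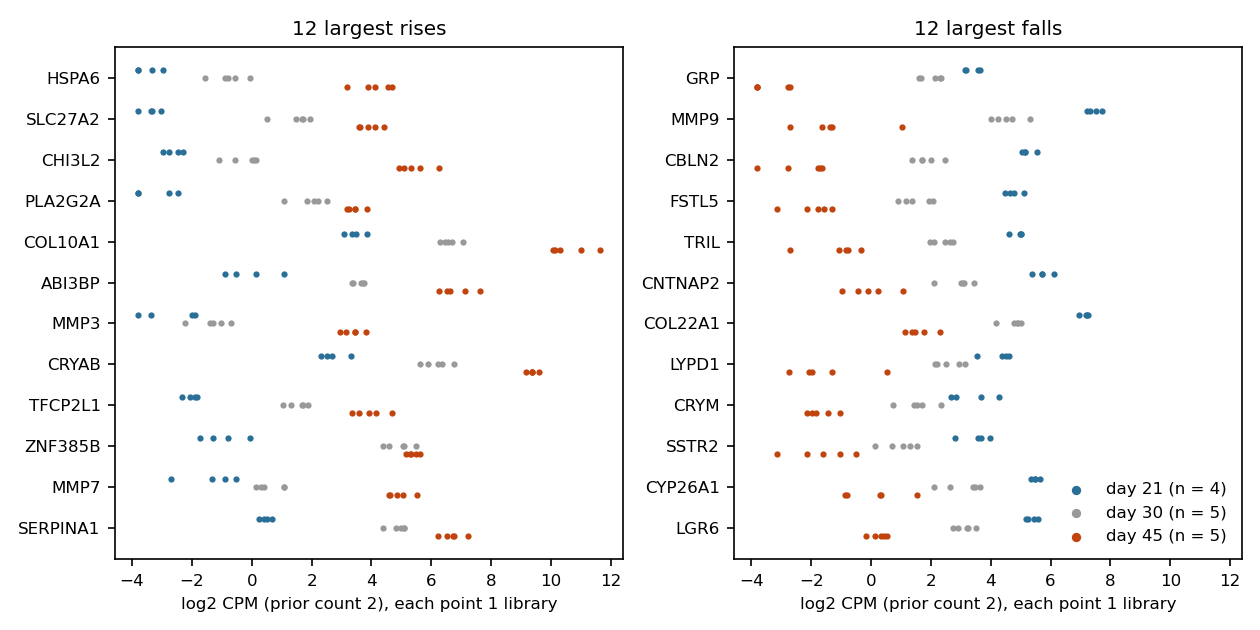
Log2 CPM with a prior count of 2 (horizontal) of the 12 largest rises (left) and the 12 largest falls (right), 1 point per library, with day 30 in grey. The genes were chosen for day 21 and day 45 points that do not overlap, and the day 30 mean lies between theirs for each.

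The 12 largest falls, chosen in the same way, included the gelatinase MMP9, the neuropeptide GRP and the collagen COL22A1. MMP9 (ENSG00000100985; chromosome 20, 46008908 to 46016561, plus strand), a protease best known from osteoclasts and from the invasion of cartilage by vessels, was at 159, 182, 150.2 and 210.1 CPM in the day 21 libraries and 0.314, 1.99, 0.331, 0.0823 and 0.247 CPM in the day 45 libraries (log2 fold change -8.16 ± 0.50 (SE), edgeR adjusted p = 4.95e-09). No day 45 library reached 2 CPM, and replicate 2 stood above the others. Without that library the log2 fold change was -9.45. Osteoclast markers were low at both days, and their sum was 20.7 to 31.8 CPM at day 21 and 6.096 to 12.1 CPM at day 45, mostly CTSK. GRP, the neuropeptide gastrin-releasing peptide, was at 8.89, 8.79, 11.9 and 12.5 CPM in the day 21 libraries and 0, 0.0751, 0, 0.0823 and 0 CPM in the day 45 libraries, with a ratio of 336 between summed counts per scaled library (95% interval 131 to 1230). Without day 45 replicate 4 its log2 fold change was -8.79 in place of -8.20. COL22A1, a collagen of tissue junctions, was at 146, 123, 148 and 150.4 CPM in the day 21 libraries and 2.67, 4.84, 2.13, 2.51 and 3.34 CPM in the day 45 libraries (log2 fold change -5.51 ± 0.21 (SE), edgeR adjusted p = 3.88e-12). It was the second most abundant of the 12 genes at day 21, after MMP9.

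CYP26A1, the enzyme that degrades retinoic acid, fell from 44.9 ± 4.03 to 1.22 ± 0.954 CPM (SD, n = 4 and 5), and LGR6, a receptor for R-spondins, fell from 41.4 ± 5.49 to 1.14 ± 0.221 CPM (SD, n = 4 and 5). CNTNAP2, a cell adhesion protein of the neurexin family, fell from 54.1 ± 11.3 to 1.02 ± 0.615 CPM (SD, n = 4 and 5). CBLN2, a secreted synaptic organiser, fell with a ratio of 240 between summed counts per scaled library (95% interval 155 to 393). The receptor SSTR2, which binds somatostatin, fell by 5.25 on the log2 scale and CRYM, a binder of thyroid hormone, by 5.48. FSTL5, a follistatin-like gene, fell by 7.04 and TRIL, an accessory protein of a Toll-like receptor, by 6.07. LYPD1, a small membrane-anchored protein, fell by 5.50, and by 6.69 without day 45 replicate 2.

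Per length of gene, collagen II and fibronectin gained the most TPM among the abundant genes. Of the 12 genes with the highest mean TPM at each day, 8 were among the 12 at both. COL2A1 went from 13421 ± 986 to 55099 ± 11284 TPM (SD, n = 4 and 5), and SPARC, a collagen-binding matrix protein, from 13004 ± 1184 to 20790.4 ± 3453 TPM (SD, n = 4 and 5). FN1, which encodes fibronectin, went from 4383 ± 280.2 to 20118 ± 2173 TPM (SD, n = 4 and 5) and ACAN from 901 ± 166 to 7295 ± 409.6 TPM (SD, n = 4 and 5), and neither was among the 12 highest at day 21. In CPM, FN1 was at 12968, 11365, 12458 and 14348 CPM in the day 21 libraries and 102088, 68739, 80841, 73387 and 82862 CPM in the day 45 libraries (log2 fold change 2.67 ± 0.22 (SE), edgeR adjusted p = 1.63e-08). The lowest day 45 library was more than 4-fold above the highest day 21 library. PENK, which encodes the opioid precursor proenkephalin, was among the 5 highest genes by TPM at both days. In CPM it was at 4596, 4652, 4247 and 5832 CPM in the day 21 libraries and 4673, 4469.5, 4334, 4241 and 4299.7 CPM in the day 45 libraries. The days overlapped, and PENK did not pass (log2 fold change -0.13 ± 0.16, SE; edgeR adjusted p = 0.493; on log2(TPM + 1) -0.53, called).

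Of the ribosomal genes among these, RPS27 and RPL37A rose by 0.59 ± 0.21 (SE) and 0.56 ± 0.19 (SE), and RPL10 (0.29), RPS23 (0.32), RPS18 (0.29), RPS3 (0.19) and RPS29 (0.12) did not pass. The call of RPS27 ended without day 21 replicate 2 (edgeR adjusted p = 0.0622), day 21 replicate 3 (0.0799) or day 45 replicate 4 (0.0516), that of RPL37A without day 21 replicate 3 (0.0588), and both ended on log2(TPM + 1). With only days 21 and 45 in the fit RPL10, RPS23 and RPS18 were called higher (edgeR adjusted p = 0.018, 0.0104 and 0.0139), as was RPL10 with DESeq2 (0.047). On log2(TPM + 1) RPS3 was called lower (-0.25, limma). Ribosomal genes and EEF1A1 have many pseudogene copies, which makes their counts uncertain. EEF1A1, the translation elongation factor, was at 15947 ± 1044 TPM at day 21 (SD, n = 4) and 15750.4 ± 993 TPM at day 45 (SD, n = 5), and its rise in CPM (0.40 ± 0.14, SE) ended without day 21 replicate 3 (edgeR adjusted p = 0.0644) and turned to -0.018 on log2(TPM + 1).

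Genes in common use as references for relative quantification rose in 10 of 18 cases and fell in none, against 27.1% and 30.5% of all genes, while on log2(TPM + 1) 4 rose and 6 fell. The median was 0.33, or 0.23 relative to all genes on the TPM scale. GAPDH, a glycolytic enzyme, was at 2700.2, 2604, 1841 and 2506 CPM in the day 21 libraries and 6104, 5275, 4995, 4845 and 5959 CPM in the day 45 libraries (log2 fold change 1.17 ± 0.14 (SE), edgeR adjusted p = 1.91e-06). PGK1, also of glycolysis, rose from 326 ± 66.6 to 906 ± 25.2 CPM (SD, n = 4 and 5). SDHA, a subunit of succinate dehydrogenase, rose from 48.8 ± 2.65 to 120 ± 19.6 CPM (SD, n = 4 and 5). All 3 of these separated the days completely. RPL13A (-0.04), of the ribosome, was near 0 and did not pass.

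Among genes of at least 100 TPM at both days, the 5 with the smallest changes were MAGED1, TMEM106C, COL8A1, MTCH1 and SON. MAGED1, an adaptor of the MAGE family, was at 655 ± 61.7 CPM at day 21 (SD, n = 4) and 654 ± 59.9 CPM at day 45 (SD, n = 5), with a 95% interval of the log2 fold change of -0.24 to 0.23. The widest such interval of the 5, that of SON, a splicing cofactor, was -0.32 to 0.33. These were chosen for their small change, so the values are a description. On log2(TPM + 1) the same genes were at -0.54 to -0.26.

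**Figure D4:**
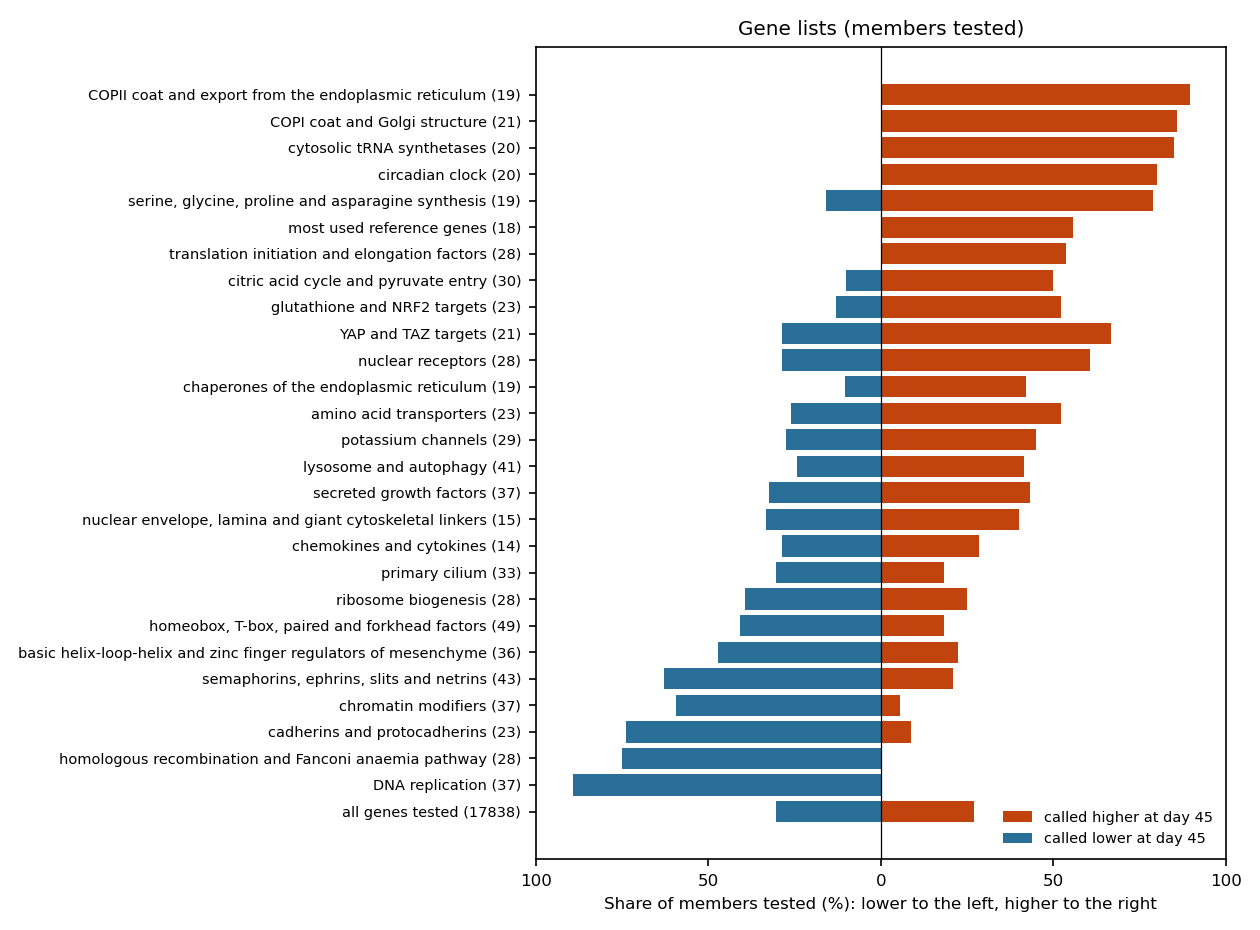
Share in percent of the tested members of each gene list (rows, with the number tested) called lower (left) and higher (right) at day 45, with all genes tested in the bottom row. The lists of vesicle coats, tRNA synthetases and the clock lie almost wholly to the right and those of DNA replication and recombination to the left. On log2(TPM + 1) 2140 of all genes were called higher and 8720 lower. The COPII list then had 2 higher and 1 lower, and the COPI list 5 and 2. Lower calls outnumbered higher ones there, as over all genes, in the lists of reference genes, endoplasmic reticulum chaperones, translation factors and the citric acid cycle. The same held for lysosome, glutathione, nuclear receptors, growth factors, chemokines, potassium channels and nuclear envelope.

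Coat proteins of the secretory pathway rose together. Beside the counts of this and the following lists stand 27.1% higher and 30.5% lower over all genes tested. On log2(TPM + 1) they stand beside 2140 higher and 8720 lower of 17838. Of 19 genes of the COPII coat, which buds cargo off the endoplasmic reticulum, 17 rose and none fell (median 0.46 over a range of -0.16 to 1.05), and on log2(TPM + 1) 2 rose and 1 fell (median 0.36 relative to all genes). SAR1B, the small GTPase that starts coat assembly, rose from 30.9 ± 3.09 to 63.5 ± 5.46 CPM (SD, n = 4 and 5). MIA3, also called TANGO1, which loads procollagen into COPII carriers, was at 68.8, 63.04, 71.9 and 67.8 CPM in the day 21 libraries and 111, 111, 115, 115 and 128 CPM in the day 45 libraries (log2 fold change 0.78 ± 0.11 (SE), edgeR adjusted p = 8.93e-06). The days did not overlap, and the smallest change of the called members was that of SEC13 and SAR1A, at 0.25 each. SEC23B, an inner coat protein, rose from 43.99 ± 3.33 to 72.5 ± 9.48 CPM (SD, n = 4 and 5).

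Of 21 genes of the COPI coat and of Golgi structure, 18 rose and none fell (median 0.50), and on log2(TPM + 1) 5 rose and 2 fell (median 0.36 relative to all genes). KDELR3, a receptor that returns chaperones to the endoplasmic reticulum, was at 76.6, 73.8, 83.9 and 91.98 CPM in the day 21 libraries and 249, 194, 254, 241 and 229 CPM in the day 45 libraries (log2 fold change 1.52 ± 0.11 (SE), edgeR adjusted p = 4.12e-09). Every day 45 library was more than 2-fold above every day 21 library. GORASP2, a Golgi stacking protein, rose from 111 ± 4.83 to 181 ± 8.26 CPM (SD, n = 4 and 5), and GOLGA2, a Golgi tether, from 149 ± 5.89 to 222 ± 7.33 CPM (SD, n = 4 and 5), with -0.10 on log2(TPM + 1). Chaperones of the endoplasmic reticulum were mixed, with 8 of 19 higher and 2 lower (median 0.16, and 4 higher and 9 lower on log2(TPM + 1)). ERO1A, the oxidase that drives disulphide bonds, rose from 43.4 ± 3.21 to 194 ± 37.3 CPM (SD, n = 4 and 5). HSPA5 (BiP), the main chaperone there, rose by 0.70 ± 0.13 (SE), and HSP90B1 (-0.25) and CALR (-0.29) did not pass. The 2 lower ones, HYOU1 (-0.30 ± 0.12, SE) and PDIA4 (-0.44 ± 0.12, SE), are a chaperone and a disulphide isomerase, and the call of HYOU1 ended in 7 of the 9 fits that left out a library.

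Genes that supply and charge amino acids were mostly higher. Of 20 cytosolic tRNA synthetases, which join amino acids to their tRNAs, 17 rose and none fell (median 0.62), and on log2(TPM + 1) 7 rose and 3 fell (median 0.49 relative to all genes). GARS1, for glycine, was at 152, 141, 123 and 138 CPM in the day 21 libraries and 292, 341, 335, 349 and 347 CPM in the day 45 libraries (log2 fold change 1.27 ± 0.10 (SE), edgeR adjusted p = 5.24e-09). No library of the days overlapped, and day 45 replicate 1 was the lowest of its day. SARS1, for serine, rose from 82.1 ± 11.8 to 206 ± 12.8 CPM (SD, n = 4 and 5). Of 19 genes that make serine, glycine, proline and asparagine, 15 rose, 3 fell and 1 did not pass (median 0.78; 9 higher and 4 lower on log2(TPM + 1)). CTH, which makes cysteine, rose from 2.17 ± 0.3005 to 12.1 ± 1.82 CPM (SD, n = 4 and 5). MTHFD2, of the mitochondrial folate cycle, rose from 92.8 ± 10.1 to 194 ± 9.23 CPM (SD, n = 4 and 5) and GPT2, a transaminase, from 81.1 ± 17.9 to 195 ± 14.9 CPM (SD, n = 4 and 5). The 3 that fell were PSPH (-0.44 ± 0.12, SE), the last step of serine synthesis, and SHMT1 (-0.50 ± 0.14, SE) and MTHFD1 (-0.43 ± 0.10, SE), enzymes of the cytosolic folate cycle.

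Amino acid transporters went both ways, with 12 of 23 tested higher and 6 lower, against 27.1% and 30.5% of all genes. On log2(TPM + 1) 9 were higher and 9 lower. SLC3A1 and SLC1A2, the 2 others of the 25 listed, were not tested. SLC7A5, the large neutral amino acid transporter LAT1, was at 171, 161, 109 and 124 CPM in the day 21 libraries and 585, 657, 592, 528 and 611 CPM in the day 45 libraries (log2 fold change 2.08 ± 0.14 (SE), edgeR adjusted p = 1.48e-09). SLC7A2, for arginine and lysine, was at 21.9, 22.97, 20.4 and 22.6 CPM in the day 21 libraries and 137, 126, 131, 118 and 139.7 CPM in the day 45 libraries (log2 fold change 2.57 ± 0.13 (SE), edgeR adjusted p = 6.23e-11). Both separated the days by a wide margin. SLC6A6, the taurine transporter, fell from 49.6 ± 2.37 to 17.3 ± 1.28 CPM (SD, n = 4 and 5).

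Of 28 genes of ribosome biogenesis 7 rose and 11 fell, shares near the 27.1% and 30.5% of all genes (median -0.22), and on log2(TPM + 1) none rose and 18 fell (median -0.28 relative to all genes). The 7 rises became 3 without day 21 replicate 2, 4 without day 21 replicate 3 and 4 without day 45 replicate 2. BOP1, needed for the large ribosomal subunit, fell from 51.1 ± 2.87 to 15.3 ± 1.497 CPM (SD, n = 4 and 5). UBTF, the nucleolar factor of ribosomal RNA genes, fell from 113 ± 7.22 to 64.99 ± 2.79 CPM (SD, n = 4 and 5), and POLR1B, a subunit of RNA polymerase I, from 27.97 ± 0.628 to 15.9 ± 1.55 CPM (SD, n = 4 and 5). Of 28 translation factors 15 rose and none fell, and on log2(TPM + 1) 6 rose and 9 fell. EIF1, which scans for start codons, rose from 319.8 ± 34.3 to 812 ± 117 CPM (SD, n = 4 and 5), and EIF2S2, of the initiation factor eIF2, from 89.1 ± 5.14 to 181 ± 10.9 CPM (SD, n = 4 and 5). EEF2K, the kinase that restrains elongation, rose from 30.1 ± 1.12 to 80.1 ± 6.98 CPM (SD, n = 4 and 5).

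DNA replication genes were lower almost without exception. Of 37 genes 33 fell and none rose (median -0.90, against -0.05 over all genes), and on log2(TPM + 1) 36 fell (median -0.83 relative to all genes). Most changes were near 2-fold or less, and 9 of the 33 exceeded it. POLE, the polymerase of the leading strand, was at 64.6, 61.9, 59.4 and 53.8 CPM in the day 21 libraries and 30.03, 32.05, 26.8, 32.4 and 25.8 CPM in the day 45 libraries (log2 fold change -1.03 ± 0.11 (SE), edgeR adjusted p = 3.03e-07). LIG1, the ligase that joins Okazaki fragments, fell from 30.8 ± 1.38 to 15.1 ± 1.36 CPM (SD, n = 4 and 5) and RFC3, of the clamp loader, from 13.6 ± 2.53 to 5.92 ± 0.756 CPM (SD, n = 4 and 5). The days did not overlap for any of these 3 genes. The 4 members not called were RPA1 (0.09), RPA2 (0.01), RFC4 (-0.12) and CDT1 (-0.39), the first pair of which bind single-stranded DNA.

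Promoters of CDC45 and MCM6, parts of the replicative helicase, and of CCNB2, a mitotic cyclin, are shown because they hold the CCAAT box or the cell cycle homology region known from cell cycle promoters. CDC45 fell from 11.8 ± 0.746 to 6.09 ± 1.83 CPM (SD, n = 4 and 5), MCM6 from 61.2 ± 6.18 to 46.9 ± 3.86 CPM (SD, n = 4 and 5) and CCNB2 from 27.6 ± 2.75 to 9.73 ± 0.934 CPM (SD, n = 4 and 5). The windows (RefSeq, GRCh38.p14, 250 bases before the start, on the gene's strand) are chr22:19479670-19479919, plus strand for CDC45, chr2:135876444-135876693, minus strand for MCM6 and chr15:59104896-59105145, plus strand for CCNB2. Capitals mark CCAAT or its reverse complement ATTGG in the first 2 and TTTGAA in CCNB2, whose window also holds CCAAT, left in lower case.
CDC45: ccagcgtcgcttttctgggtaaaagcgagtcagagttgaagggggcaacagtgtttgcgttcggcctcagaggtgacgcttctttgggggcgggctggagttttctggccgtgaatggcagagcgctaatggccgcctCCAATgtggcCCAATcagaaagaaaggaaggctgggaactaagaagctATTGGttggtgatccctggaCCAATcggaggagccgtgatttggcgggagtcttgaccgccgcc
MCM6: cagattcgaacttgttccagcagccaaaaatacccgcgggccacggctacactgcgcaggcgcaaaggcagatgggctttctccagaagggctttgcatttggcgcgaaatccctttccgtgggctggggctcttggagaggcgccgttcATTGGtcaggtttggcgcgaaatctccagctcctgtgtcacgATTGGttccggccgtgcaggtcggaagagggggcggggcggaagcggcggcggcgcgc
CCNB2: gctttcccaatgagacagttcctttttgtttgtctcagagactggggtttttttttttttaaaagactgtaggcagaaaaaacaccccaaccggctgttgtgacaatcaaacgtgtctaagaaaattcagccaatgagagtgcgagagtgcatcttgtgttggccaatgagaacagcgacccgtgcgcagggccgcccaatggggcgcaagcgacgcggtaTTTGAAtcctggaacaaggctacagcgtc
CCAAT on either strand was found 4 times in the CDC45 window and 2 times in that of MCM6. Of all 12417 promoters 34.3% held it, of the 32 promoters found for the replication list 56.2%, and of genes more than 2-fold lower 35.2%. TTTGAA starts 29 bases before the start of CCNB2 and was held by 8.83% of all promoters, 12.8% of those of genes more than 2-fold lower, 9.35% of those more than 2-fold higher and 3.12% of the replication list (1 of 32). A further motif, ACGTG, the core of the hypoxia element, was held by 22.7% of all promoters, 23.6% of those more than 2-fold higher and 17.1% of those more than 2-fold lower. TGTGGT, the RUNX motif, was held by 7.84%, 7.7% and 8.93% of the same sets.

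Repair and chromatin genes shared the direction of replication. Of 28 genes of homologous recombination and the Fanconi anaemia pathway, 21 fell and none rose (median -0.83; 24 fell on log2(TPM + 1)). FANCE, chosen after its value was seen, was called higher in 1 of the 9 fits that left out a library, that without day 45 replicate 3. BARD1, the partner of BRCA1, fell from 17.7 ± 1.905 to 7.15 ± 0.918 CPM (SD, n = 4 and 5), BRIP1, a helicase, from 10.9 ± 1.49 to 4.13 ± 0.419 CPM (SD, n = 4 and 5) and FANCD2 from 19.6 ± 2.27 to 8.23 ± 1.23 CPM (SD, n = 4 and 5). Of 37 chromatin modifiers 22 fell and 2 rose (median -0.35; 29 and 1 on log2(TPM + 1)). CHD3, a remodeller of the NuRD complex, was at 350.2, 334, 316 and 309.6 CPM in the day 21 libraries and 91.5, 101, 109, 103 and 85.3 CPM in the day 45 libraries (log2 fold change -1.74 ± 0.10 (SE), edgeR adjusted p = 1.25e-10). Every day 45 library was more than 2-fold below every day 21 library. DNMT3A, which sets new DNA methylation, fell from 97.4 ± 6.65 to 45.3 ± 2.67 CPM (SD, n = 4 and 5), and EZH2, the Polycomb methyltransferase, fell by 1.78 on the log2 scale (SE 0.16). The 2 that rose were CBX7, a Polycomb subunit (from 2.17 ± 0.274 to 11.01 ± 2.58 CPM (SD, n = 4 and 5)), and TET1, which oxidises methylated DNA (0.80 ± 0.25, SE).

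Lamin genes moved apart in the nuclear envelope list, with 6 of 15 higher and 5 lower, against 27.1% and 30.5% of all genes. On log2(TPM + 1) 3 were higher and 9 lower. LMNB1, which encodes lamin B1, was at 59.2, 60.1, 59.02 and 70.2 CPM in the day 21 libraries and 19.2, 21.2, 16.6, 22.1 and 15.5 CPM in the day 45 libraries (log2 fold change -1.72 ± 0.12 (SE), edgeR adjusted p = 2.39e-09). LMNA, the gene of lamins A and C, rose by 0.49 ± 0.11 (SE; 0.06 on log2(TPM + 1), not called), and LMNB2 fell by 0.87 on the log2 scale. TMPO, a lamina-associated protein, fell from 83.1 ± 10.3 to 36.9 ± 2.99 CPM (SD, n = 4 and 5). VIM, the intermediate filament vimentin, was at 1317, 1246, 1058 and 1236 CPM in the day 21 libraries and 6516, 4936, 4772, 4859.8 and 6275 CPM in the day 45 libraries (log2 fold change 2.17 ± 0.14 (SE), edgeR adjusted p = 6.38e-10). VIM and LMNB1 moved in opposite directions with no overlap of the days in either.

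Of 30 genes of the citric acid cycle and pyruvate entry 15 rose and 3 fell (median 0.28), and on log2(TPM + 1) 9 rose and 11 fell. PCK2, which makes phosphoenolpyruvate in mitochondria, rose from 18.9 ± 5.34 to 71.3 ± 7.35 CPM (SD, n = 4 and 5). PDK3, a kinase that shuts off pyruvate dehydrogenase, rose from 12.8 ± 1.18 to 52.1 ± 7.099 CPM (SD, n = 4 and 5). Its relatives PDK4 (1.63 ± 0.25, SE) and PDK1 (1.09 ± 0.19, SE) rose as well, and PDK2 fell (-0.87 ± 0.10, SE). CS, citrate synthase, and DLST, of the 2-oxoglutarate dehydrogenase complex, were the other two that fell (-0.43 ± 0.09 and -0.28 ± 0.08, SE). With only the libraries of days 21 and 45 in the fit, 5 members fell.

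Of 23 glutathione and NRF2 target genes 12 rose and 3 fell, against 27.1% and 30.5% of all genes (7 and 10 on log2(TPM + 1)). GPX3, a secreted glutathione peroxidase, was at 5.17, 3.597, 5.33 and 7.06 CPM in the day 21 libraries and 36.7, 30.7, 30.7, 28.7 and 30.6 CPM in the day 45 libraries (log2 fold change 2.58 ± 0.15 (SE), edgeR adjusted p = 2.18e-10). SLC7A11, the cystine importer, rose from 11.5 ± 2.74 to 45.2 ± 6.77 CPM (SD, n = 4 and 5) and HMOX1, which degrades haem, from 4.65 ± 0.768 to 16.4 ± 2.57 CPM (SD, n = 4 and 5). NFE2L2, the gene of NRF2 itself, did not pass (0.08), nor did GCLC (-0.18), a subunit of the enzyme that starts glutathione synthesis. Among those that fell were TXNRD1 (-0.45 ± 0.10, SE), which reduces thioredoxin, and GPX7 (-0.52 ± 0.11, SE), a peroxidase. Of 41 lysosome and autophagy genes 17 rose and 10 fell, against the same shares of all genes. On log2(TPM + 1) 7 rose and 21 fell, against 2140 and 8720 of all 17838. The cathepsins went both ways. CTSL rose from 36.7 ± 2.42 to 121 ± 4.59 CPM (SD, n = 4 and 5), while CTSK fell by 1.94 and CTSS by 2.79 on the log2 scale. WIPI1, of early autophagosomes, rose from 34.6 ± 2.43 to 88.4 ± 6.57 CPM (SD, n = 4 and 5) and NPC1, which exports cholesterol from lysosomes, from 27.2 ± 1.29 to 72.1 ± 10.03 CPM (SD, n = 4 and 5).

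Clock genes were higher at day 45 on both limbs of the clock. Of 20 tested, 16 rose, 13 of them by more than 2-fold, and none fell (median 1.24), and on log2(TPM + 1) 12 rose and 2 fell (median 1.09 relative to all genes). RORB and HLF were among those with too few counts to be tested. Among activators, ARNTL, which encodes BMAL1, rose by 1.68 ± 0.12 (SE), NPAS2 by 1.11 ± 0.13 (SE) and RORA by 1.99 ± 0.29 (SE). Among repressors, PER3 rose by 1.90 ± 0.24 (SE), PER2 by 1.38 ± 0.16 (SE) and NR1D1, which encodes REV-ERB alpha, by 3.69 ± 0.26 (SE). BHLHE41, a repressor of the clock, was at 0.5002, 0.633, 0.181 and 0.198 CPM in the day 21 libraries and 9.93, 6.305, 8.08, 7.78 and 9.48 CPM in the day 45 libraries (log2 fold change 4.43 ± 0.29 (SE), edgeR adjusted p = 8.86e-10). NFIL3 was at 8.45, 7.47, 7.94 and 6.57 CPM in the day 21 libraries and 31.6, 30.9, 27.8, 30.5 and 35.98 CPM in the day 45 libraries (log2 fold change 2.04 ± 0.11 (SE), edgeR adjusted p = 7.47e-11), and TEF, which competes with it for the same sites, rose from 3.73 ± 0.432 to 12.9 ± 1.33 CPM (SD, n = 4 and 5). No library of the days overlapped for these 3 genes. The labels do not give the hour of sampling, so time of day and day of culture cannot be told apart. CRY1 (0.19), CIART (0.64), CSNK1E (0.17) and ARNTL2 (-0.08) did not pass.

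Of 28 nuclear receptors tested 17 rose and 8 fell (median 0.43), and on log2(TPM + 1) 6 rose and 7 fell (median 0.35 relative to all genes). PPARA, a receptor for fatty acids, was at 15.7, 14.9, 16.2 and 17.2 CPM in the day 21 libraries and 47.3, 45.4, 55.6, 53.03 and 54.1 CPM in the day 45 libraries (log2 fold change 1.67 ± 0.12 (SE), edgeR adjusted p = 2.72e-09). VDR, the vitamin D receptor, rose from 4.15 ± 0.705 to 15.5 ± 1.61 CPM (SD, n = 4 and 5), and NR1H2, an oxysterol receptor, from 19.3 ± 2.08 to 44.5 ± 5.76 CPM (SD, n = 4 and 5). Among those that fell were NR2F2, an orphan receptor of mesenchyme (from 16.7 ± 0.755 to 7.85 ± 1.17 CPM (SD, n = 4 and 5)), and ESRRG, an orphan receptor (from 2.64 ± 0.461 to 0.327 ± 0.0796 CPM (SD, n = 4 and 5)). NR3C1, the glucocorticoid receptor, rose by 0.71 ± 0.17 (SE) and THRB, a thyroid hormone receptor, by 1.68 ± 0.23 (SE).

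Of 49 homeobox, T-box, paired and forkhead factors tested, from 74 listed, 20 fell and 9 rose, against 30.5% and 27.1% of all genes (median -0.41; 27 and 8 on log2(TPM + 1)). MEOX1, a somite homeobox factor, was at 16.1, 11.8, 10.8 and 13.5 CPM in the day 21 libraries and 0.353, 0.263, 0.331, 0.658 and 0.288 CPM in the day 45 libraries (log2 fold change -5.10 ± 0.25 (SE), edgeR adjusted p = 2.62e-11). LMX1B, of dorsal limb and craniofacial mesenchyme, fell from 43.4 ± 1.33 to 14.1 ± 1.49 CPM (SD, n = 4 and 5). MEIS2, a partner of homeobox factors, fell from 40.3 ± 3.85 to 15.2 ± 2.05 CPM (SD, n = 4 and 5) and FOXP1, a forkhead repressor, from 61.2 ± 7.31 to 26.3 ± 3.05 CPM (SD, n = 4 and 5). FOXA2 (ENSG00000125798), a forkhead factor of foregut that hypertrophic chondrocytes also use, was at 0.472, 0.304, 0.466 and 0.51 CPM in the day 21 libraries and 23.6, 14.5, 18.8, 17.8 and 19.6 CPM in the day 45 libraries (log2 fold change 5.42 ± 0.22 (SE), edgeR adjusted p = 3.91e-12). FOXA1 fell (-2.88 ± 0.67, SE, with -3.62 to -2.58 when 1 library was left out), and FOXA3 rose (1.10 ± 0.12, SE), so the 3 members of that family did not move together. FOXF2 rose from 0.624 ± 0.0887 to 3.58 ± 1.02 CPM (SD, n = 4 and 5).

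Of 36 basic helix-loop-helix and zinc finger regulators tested 17 fell and 8 rose (median -0.44; 24 and 8 on log2(TPM + 1)). The 8 that rose were 5 members of the KLF family, GATA6 and the repressors SNAI1 and SNAI2. KLF15 was at 2.58, 1.82, 1.73 and 2.27 CPM in the day 21 libraries and 43.7, 35.8, 39.99, 32.7 and 42.6 CPM in the day 45 libraries (log2 fold change 4.21 ± 0.18 (SE), edgeR adjusted p = 9.59e-12), and KLF9 at 3.11, 3.09, 3.52 and 2.64 CPM in the day 21 libraries and 30.7, 25.1, 25.7, 29.99 and 30.7 CPM in the day 45 libraries (log2 fold change 3.20 ± 0.15 (SE), edgeR adjusted p = 1.33e-11). Both separated the days by more than 9-fold in the means. KLF4 rose from 28.8 ± 2.07 to 77.4 ± 5.67 CPM (SD, n = 4 and 5) and SNAI2, a repressor of epithelial genes, from 54.8 ± 3.64 to 178 ± 18.1 CPM (SD, n = 4 and 5). SCX, the tendon factor scleraxis, was at 45.7, 35.1, 35.7 and 41.8 CPM in the day 21 libraries and 3.65, 2.78, 3.93, 4.11 and 3.503 CPM in the day 45 libraries (log2 fold change -3.46 ± 0.22 (SE), edgeR adjusted p = 1.13e-09). EBF2, an early B cell factor of mesenchyme, was at 121, 104, 130.2 and 118 CPM in the day 21 libraries and 15.8, 17.98, 22.3, 27.6 and 19.5 CPM in the day 45 libraries (log2 fold change -2.52 ± 0.15 (SE), edgeR adjusted p = 2.69e-10). All 3 EBF genes, all 3 HEY genes and all 3 GLI genes of the list fell.

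Secreted growth factors changed in both directions and often by large amounts. Of 37 tested 16 rose and 12 fell, against 27.1% and 30.5% of all genes. More than 2-fold were 11 and 12 of them, against 10.2% and 15.1% of all genes. On log2(TPM + 1) 11 rose and 15 fell. FGF18, which restrains chondrocyte proliferation and is made around cartilage, was at 9.84, 9.57, 10.7 and 8.02 CPM in the day 21 libraries and 0.157, 0.3002, 0.1102, 0.247 and 0.124 CPM in the day 45 libraries, with a ratio of 51 between summed counts per scaled library (95% interval 34.1 to 79.8). HGF (-3.75 ± 0.43, SE), FGF10 (-3.33 ± 0.44, SE) and FGF9 (-3.11 ± 0.29, SE) fell as well. IGF1 fell from 4.71 ± 1.18 to 0.446 ± 0.183 CPM (SD, n = 4 and 5), whereas IGF2 rose by 1.77 ± 0.16 (SE). MDK, the heparin-binding midkine, was at 47.2, 49.6, 37.4 and 46.1 CPM in the day 21 libraries and 7.73, 9.27, 6.21, 7.57 and 9.48 CPM in the day 45 libraries (log2 fold change -2.49 ± 0.16 (SE), edgeR adjusted p = 1.06e-09), and its relative PTN fell by 1.59. GAS6, the ligand of AXL, was at 19.6, 16.1, 14.7 and 11.5 CPM in the day 21 libraries and 188, 133, 133, 116 and 153 CPM in the day 45 libraries (log2 fold change 3.22 ± 0.17 (SE), edgeR adjusted p = 7.99e-11). PDGFB rose from 5.02 ± 0.413 to 29.3 ± 9.74 CPM (SD, n = 4 and 5) and EGF from 0.347 ± 0.0982 to 2.71 ± 0.474 CPM (SD, n = 4 and 5). PDGFA fell by 1.28 on the log2 scale. VEGFA, the hypoxia-inducible angiogenic factor of hypertrophic cartilage, rose by 2.83 ± 0.38 (SE).

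Of 33 chemokines and cytokines, 14 had enough counts to be tested, and 4 rose and 4 fell (4 and 6 on log2(TPM + 1)). These shares were near the 27.1% and 30.5% of all genes. All 4 rises and 3 of the 4 falls exceeded 2-fold, and the log2 fold changes of the list ran from -6.37 to 4.35. TNFSF11, which encodes the osteoclast-inducing RANKL, was at 0.0278, 0.177, 0.284 and 0.198 CPM in the day 21 libraries and 4.004, 3.68, 3.195, 3.54 and 3.75 CPM in the day 45 libraries, with a ratio of 20.8 between summed counts per scaled library (95% interval 14 to 32.3). IL16 rose from 15.1 ± 3.16 to 67.4 ± 9.11 CPM (SD, n = 4 and 5), and CX3CL1 fell from 18.2 ± 1.61 to 10.4 ± 1.37 CPM (SD, n = 4 and 5). CXCL8, IL6, IL1B and TNF were not tested.

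Guidance and adhesion genes of the nervous system and mesenchyme fell widely. Of 43 semaphorins, ephrins, slits, netrins and their receptors tested 27 fell and 9 rose (median -0.73; 30 and 6 on log2(TPM + 1)). PLXNA4, a semaphorin receptor, was at 45.9, 39.8, 47.4 and 45.8 CPM in the day 21 libraries and 4.63, 4.05, 3.599, 4.07 and 3.09 CPM in the day 45 libraries (log2 fold change -3.52 ± 0.15 (SE), edgeR adjusted p = 7.48e-12). SEMA6A, a membrane-bound semaphorin, was at 289, 246, 239 and 249 CPM in the day 21 libraries and 72.6, 85.6, 89.8, 86.7 and 89.5 CPM in the day 45 libraries (log2 fold change -1.59 ± 0.10 (SE), edgeR adjusted p = 4.71e-10). EFNB3, an ephrin, fell from 27.3 ± 1.12 to 5.11 ± 0.813 CPM (SD, n = 4 and 5). The days did not overlap for these 3 genes. NRP1 (3.06 ± 0.30, SE) and NRP2 (0.83 ± 0.11, SE), co-receptors of semaphorins and of VEGF, rose, as did PLXND1 (1.85 ± 0.12, SE). Neuron markers fell in 5 of 7 members tested beside these genes, and their part in the result was not tested.

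Of 23 cadherins and protocadherins tested 17 fell, 14 of them by more than 2-fold, and 2 rose (median -1.31; 18 and 1 on log2(TPM + 1)). PCDH18 was at 101, 101, 116 and 121 CPM in the day 21 libraries and 12.9, 22.8, 19.98, 21.3 and 15.4 CPM in the day 45 libraries (log2 fold change -2.57 ± 0.15 (SE), edgeR adjusted p = 1.53e-10). CDH8 was at 13.7, 12.03, 14.2 and 14.1 CPM in the day 21 libraries and 0.275, 1.05, 0.404, 0.576 and 0.659 CPM in the day 45 libraries, with a ratio of 22.7 between summed counts per scaled library (95% interval 18 to 28.9), and PCDH19 fell with a ratio of 11.7 between summed counts per scaled library (95% interval 9.49 to 14.6). CDH2, the N-cadherin of condensing mesenchyme, fell by 1.17 and CDH11 by 0.60 on the log2 scale. The 2 that rose were PCDH1 (1.19 ± 0.20, SE) and CDH19 (0.57 ± 0.23, SE), and the call of CDH19 ended without day 21 replicate 1, day 21 replicate 2, day 45 replicate 3 or day 45 replicate 4.

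Potassium channels of the calcium-activated SK and IK family changed in opposite directions. Of 29 channel genes tested 13 rose and 8 fell, against 27.1% and 30.5% of all genes (9 and 10 on log2(TPM + 1)). KCNN4, of intermediate conductance, was at 1.06, 1.11, 0.75 and 0.907 CPM in the day 21 libraries and 37.1, 19.7, 21.8, 19.6 and 26.01 CPM in the day 45 libraries (log2 fold change 4.69 ± 0.22 (SE), edgeR adjusted p = 1.63e-11). KCNN2, of small conductance, was at 28.9, 25.1, 24.4 and 31.8 CPM in the day 21 libraries and 1.49, 1.801, 1.69, 2.02 and 1.03 CPM in the day 45 libraries (log2 fold change -4.09 ± 0.15 (SE), edgeR adjusted p = 3.53e-12), and KCNN3, also of small conductance, fell from 43.3 ± 6.62 to 9.86 ± 2.06 CPM (SD, n = 4 and 5). Among these 3 genes KCNN4 had the lowest CPM in every day 21 library and the highest in every day 45 library. Of 33 genes of the primary cilium 6 were higher and 10 lower, against 27.1% and 30.5% of all genes. On log2(TPM + 1) none was higher and 21 were lower (median -0.13 relative to all genes). No change in the list exceeded 2-fold in the main test, against 10.2% of all genes called more than 2-fold higher and 15.1% lower. IFT88 and IFT81, of the transport complex of the cilium, fell from 8.81 ± 1.43 to 4.58 ± 1.04 CPM (SD, n = 4 and 5) and from 10.1 ± 1.06 to 5.54 ± 0.551 CPM (SD, n = 4 and 5). TULP3 rose from 42.4 ± 3.66 to 59.1 ± 2.58 CPM (SD, n = 4 and 5), and its call ended on log2(TPM + 1).

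Genes known as targets of YAP and TAZ, coactivators that respond to stretch and cell shape, rose in 14 of 21 cases tested and fell in 6 (median 0.83; 10 and 6 on log2(TPM + 1)). CCN2, also called CTGF, is made by hypertrophic chondrocytes and was at 251, 264, 299 and 279.6 CPM in the day 21 libraries and 5467, 2214, 2125, 2597 and 3889.9 CPM in the day 45 libraries (log2 fold change 3.57 ± 0.25 (SE), edgeR adjusted p = 2.75e-09). The days did not overlap, and day 45 replicates 1 and 5 were the highest. GADD45A, a growth arrest gene, rose from 4.64 ± 0.684 to 42.2 ± 2.85 CPM (SD, n = 4 and 5) and NT5E, the ectonucleotidase CD73, from 8.298 ± 1.95 to 38.7 ± 9.64 CPM (SD, n = 4 and 5). TGFB2 and RBMS3, also on the list, fell by 1.06 and 1.02 on the log2 scale. The CCN2 promoter is shown because it holds GGAATG, the motif of the TEAD partners of YAP, 3 times, 169, 104 and 95 bases before the start (RefSeq, GRCh38.p14, chr6:131951373-131951622, minus strand, capitals mark GGAATG).
CCN2: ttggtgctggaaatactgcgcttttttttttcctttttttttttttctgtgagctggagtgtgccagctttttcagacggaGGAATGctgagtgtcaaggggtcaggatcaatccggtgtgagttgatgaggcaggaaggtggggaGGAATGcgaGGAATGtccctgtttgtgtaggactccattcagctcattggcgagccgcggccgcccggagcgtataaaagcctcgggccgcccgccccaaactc
GGAATG on either strand was held by 9.5% of all promoters, 10.8% of those of genes more than 2-fold higher and 10.7% of those more than 2-fold lower.

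In the median gene the day 45 libraries varied among themselves about as much as those of day 21. Over 8350 genes of at least 10 CPM at both days, the median SD of log2 CPM was 0.128 at day 21 and 0.126 at day 45. The genes of at least 50 CPM with the largest spread at day 45 were MAGED4B, COL7A1, COL10A1, CCN2, CEBPD, ABI3BP, ERRFI1 and MAPK8IP3, of which 6 were called higher. COL7A1, the anchoring fibril collagen, was at 6.503, 9.55, 5.69 and 3.85 CPM in the day 21 libraries and 173, 77.5, 50.9, 56.1 and 89.1 CPM in the day 45 libraries (log2 fold change 3.799 ± 0.36 (SE), edgeR adjusted p = 3.03e-07). CEBPD, a stress-responsive transcription factor, was at 3.67, 3.24, 3.44 and 3.54 CPM in the day 21 libraries and 75.5, 44.1, 37.2, 36.04 and 84.7 CPM in the day 45 libraries (log2 fold change 3.997 ± 0.28 (SE), edgeR adjusted p = 3.09e-09). Replicates 1 and 5 were the highest pair in 7 of the 8 genes, ERRFI1, a feedback inhibitor of the EGF receptor, among them, and MAGED4B was the exception. MAGED4B was at 84.3, 73.96, 59.4 and 67.6 CPM in the day 21 libraries and 92.9, 43.4, 63.3, 88.3 and 25.6 CPM in the day 45 libraries and did not pass, and it has an identical copy, MAGED4, and reads cannot be assigned between them.

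COMP, TPM2 and COL2A1 were chosen for a large gap of day 45 replicate 1, so its place in them is a description. COMP, a matrix glycoprotein, was at 85.6, 64.8, 86.7 and 75.7 CPM in the day 21 libraries and 3759, 1854, 2557, 1793 and 2248 CPM in the day 45 libraries. TPM2, a tropomyosin, was at 209, 201, 165 and 209 CPM in the day 21 libraries and 756, 426, 497, 441 and 515 CPM in the day 45 libraries. COL2A1 was at 33639, 27392, 26482 and 32082 CPM in the day 21 libraries and 235088, 136104, 163564, 137585 and 162958 CPM in the day 45 libraries. In each of these 3 genes replicate 1 was above the other day 45 libraries, and it lay farther from day 21 than they did. Over 3297 genes of at least 50 CPM it was the highest or lowest day 45 library in 46.7%, and the other libraries in 29.1% to 43.7%. It was the lowest in 940 of them and the highest in 600, and replicate 3 was the most often highest (1094). No gene of these lay more than 2-fold beyond the other 4 libraries there. With this library placed at day 30, 8638 genes were called, and 8572 of them were main calls in the same direction.

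**Figure D5:**
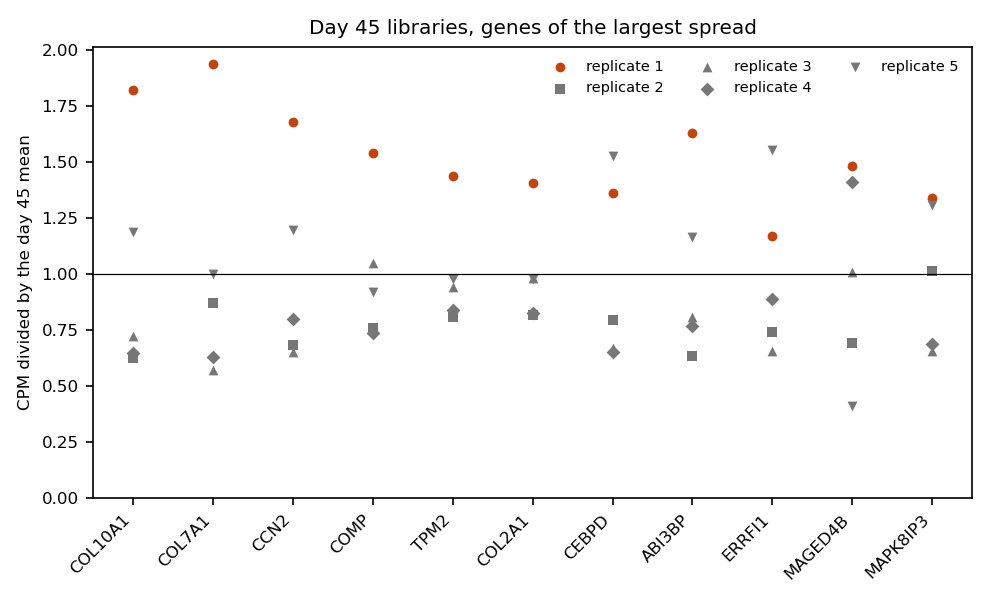
CPM of each day 45 library divided by the day 45 mean (vertical, linear from 0) for 11 genes with the largest spread at day 45 or the largest gap of replicate 1 (horizontal), with replicate 1 in orange and the other 4 libraries in grey. Replicate 1 is the highest in 9 of the 11 genes, some of which were chosen for that, against 600 of 3297 genes of at least 50 CPM, and the line at 1 marks the mean.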

How the data were processed

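RNA of 14 pellet libraries was measured by sequencing, and 9 of them, 4 of day 21 and 5 of day 45, are compared. Per the submitters' processing notes, reads were processed with STAR 2.4.2a and RSEM 1.2.25 on GRCh38. The annotation release and the use of strand in counting are not given in the sources used here. The deposited tables give, per the file headers, an expected count and a TPM for each of 60587 genes. Of these, 60563 had a symbol and 58400 matched GENCODE 29, the source of coordinates.

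Expected counts as deposited by the authors were rounded, filtered by filterByExpr with the 3 days as groups (17838 genes kept) and scaled by TMM. The 3 days were fitted in 1 model of all 14 libraries, and the contrast of day 45 with day 21 was tested by the robust quasi-likelihood F-test of edgeR 4.0.16 (R 4.3.3). The SE is the log2 fold change divided by the square root of F, and the 2-fold bound is on the fitted value. Alternatives were DESeq2 1.42.0, its size factors in edgeR, limma 3.58.1 on deposited TPM after log2 with 1 or 0.1 added, no filter, only days 21 and 45, a replicate block, each library left out, and day 45 replicate 1 at day 30. The pipeline was tested on simulated data.

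The comparison and the gene lists were chosen with earlier results of these data known. Gene lists (27) and marker lists (17) are described by counts, with no test of the list. Named genes are the 12 largest changes each way (10 CPM or more at the higher day, no overlap), the 12 highest in TPM per day, the 3 list members with the smallest adjusted p (6 for factors, growth factors and receptors), 8 by spread, 6 by gap of day 45 replicate 1, 5 by small change, and those with a printed promoter. Other genes named, with values, were chosen after their values were seen. Mitochondrially encoded genes, and some genes that these rules pick, are not reported here. A promoter was matched by symbol for 12417 of the genes tested. Library measures were compared by exact permutation tests.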

Additional observations from a re-analysis of the deposited data

Results flagged for a closer look

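Of 314 sets of values 19 held a library that stood apart. A set was a named gene, or a measure of whole libraries, in the libraries of a day. Standing apart means that the gap to the nearest other library took a larger part of the range than Dixon's 95% value. Chance alone marks about 1 in 20 sets that were not chosen by their values. Some of the named genes were chosen for a large gap of day 45 replicate 1, TPM2 and COL2A1 among them, or for a large spread at day 45. The counts per library are therefore partly set by that choice. Of the 19, 6 were in day 45 replicate 1, 3 each in day 45 replicates 2 and 4, 1 in day 45 replicate 5, 3 in day 21 replicate 4, 2 in day 21 replicate 2 and 1 in day 21 replicate 3. The cause was not tested for any of them.

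Day 45 replicate 1 was the highest in COL2A1 (235100 CPM against 136100 to 163600 in the others of its day), TPM2 (756.5 against 426 to 514.9 CPM), GPX3 (36.7 against 28.7 to 30.7 CPM) and VDR (18.3 against 14.3 to 15.0 CPM). It was the lowest in GARS1 (291.8 against 334.8 to 349 CPM) and in SEMA6A (72.6 against 85.6 to 89.8 CPM). This is the library whose treatment label reads 30 days. Each of these 6 genes kept its call without it.

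Day 45 replicate 2 was the highest in MMP9 (1.99 against 0.0823 to 0.331 CPM), LYPD1 (1.39 against 0.0785 to 0.329 CPM) and PCK2 (84.0 against 65.2 to 70.3 CPM). Day 45 replicate 4 was the highest in MEOX1 (0.658 against 0.263 to 0.353 CPM) and EGF (3.54 against 2.35 to 2.63 CPM), and the lowest in RPS3 (1070 against 1231 to 1276 CPM). Day 45 replicate 5 was the highest in MIA3 (128.2 against 111.1 to 115.4 CPM).

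At day 21, replicate 4 was the highest in LMNB1 (70.2 against 59.0 to 60.1 CPM), TMEM106C (49.3 against 43.0 to 43.8 CPM) and CCNB2 (31.7 against 26.0 to 26.7 CPM). Replicate 3 was the highest in PDGFB (5.64 against 4.79 to 4.84 CPM). Replicate 2 was the lowest in TRIL (24.1 against 31.7 to 32.5 CPM) and SON (345.8 against 369.1 to 373.3 CPM).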

How the results depend on the processing

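Counts of called genes kept within 1.5 times of the main ones under the count-based alternatives. The main test called 10284 genes, DESeq2 10485, DESeq2 size factors 10254, a fit of days 21 and 45 alone 10804, no filter 10554, day 45 replicate 1 at day 30 8638, and fits leaving out 1 library 9335 to 10107. The same direction was called in all 9 of the last for 8522 genes (82.9%). The TPM scale moved the split: with 1 added, 2140 genes were higher, 8720 lower and 668 more than 2-fold higher, and with 0.1 added 2119, 8641, 1037 and, more than 2-fold lower, 4151. On it 72.5% and 72.3% of the main calls were called again in the same direction, and 38 and 37 were called the other way. The rest of the main calls did not pass there, whatever their sign. With 1 and 0.1 added alike, EEF1A1 turned to -0.018, RPS3 to -0.25, GOLGA2 to -0.10, MTCH1 to -0.44 and SON to -0.54; RPS3, MTCH1 and SON were not called in the main test. PENK, MAGED1 and MAGED4B became called lower there, and SEC23B, RPS27, RPL37A, TULP3, MMP13 and CDH19 lost their calls. The cause was not tested.

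Replicate numbers showed no clear pairing of the libraries. Deviations of same-numbered libraries of days 21 and 45 correlated at 0.05 to 0.12, and those of the other pairs at -0.18 to 0.19. Whether same-numbered libraries share an origin was not tested. With the replicate block 9728 genes were called, 4551 higher and 5177 lower, 9579 of them main calls. The call of HYOU1 ended with it (edgeR adjusted p = 0.0775).

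Without 1 library MAPK8IP3 became called (day 45 replicate 3 or 4, edgeR adjusted p = 0.0281 and 0.0343). The depth limits changes of genes under 1 CPM, whose median SE was 0.44.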

Other observations

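A few genes known to be induced by glucocorticoids are given here as single values. They were chosen after their values were seen, and no list of such genes was counted. FKBP5, a co-chaperone of the glucocorticoid receptor, was at 252 ± 8.76 CPM at day 21 (SD, n = 4) and 616 ± 69.8 CPM at day 45 (SD, n = 5) (edgeR adjusted p = 3.18e-08). TSC22D3, which encodes the anti-inflammatory protein GILZ, was at 182 ± 5.63 CPM at day 21 (SD, n = 4) and 487 ± 145 CPM at day 45 (SD, n = 5), and DUSP1, a phosphatase of MAP kinases, at 15.9 ± 1.32 CPM at day 21 (SD, n = 4) and 103 ± 17.8 CPM at day 45 (SD, n = 5). ZBTB16, also called PLZF, was at 18.7 ± 1.46 CPM at day 21 (SD, n = 4) and 107 ± 12.99 CPM at day 45 (SD, n = 5). PER1, a clock gene, rose by 1.24 ± 0.10 (SE), and KLF9, KLF15 and CEBPD, described above, are known for the same response. The days did not overlap for any of these genes. SGK1, a kinase often listed with them, was at 16.2 ± 2.15 CPM at day 21 (SD, n = 4) and 17.8 ± 4.52 CPM at day 45 (SD, n = 5), and it overlapped and did not pass (edgeR adjusted p = 0.568).

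The metallothionein genes MT2A, MT1X and MT1E, which encode small proteins that bind zinc and copper, were chosen in the same way, and the rest of the family was not counted. MT2A was at 21.2 ± 4.45 CPM at day 21 (SD, n = 4) and 115 ± 34.7 CPM at day 45 (SD, n = 5), MT1X at 3.73 ± 0.8296 CPM at day 21 (SD, n = 4) and 25.3 ± 5.39 CPM at day 45 (SD, n = 5) and MT1E at 0.966 ± 0.241 CPM at day 21 (SD, n = 4) and 10.2 ± 1.56 CPM at day 45 (SD, n = 5). Their edgeR adjusted p-values were 3.93e-06, 2.98e-09 and 9.56e-08. These genes are close relatives in sequence, so the assignment of reads between them is uncertain. Among long non-coding RNAs of at least 10 CPM at either day, LINC00968 rose from 1.38 to 15.5 CPM in the means, and MIAT fell from 17.5 to 2.42 CPM. MIR210HG, the host transcript of a hypoxia-induced microRNA, rose from 5.301 to 19.8 CPM, and NEAT1, the scaffold of paraspeckles, from 37.5 to 92.7 CPM. All 4 were called by edgeR.

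Limits bear on all of these values. The groups are 4 and 5 libraries of 1 cell line, and whether the pellets were separate cultures is not stated in the labels. Whole pellets were sequenced, so a level is an average over all cells. The library kit does not mark strand, and expected counts split reads between near-identical genes.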
